A study of Mus musculus with 23 samples.

Results

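The regions described are 5 places in the mouse genome where an imprinted transcript starts inside, and is surrounded by, a larger host gene. The rule took every window of the deposited tables that overlapped 1 of 5 short intervals around these starts on GRCm38. With the windows of the E7.5 tables these reached over chr2:152680059-152704007, where Mcts2 lies in H13, and chr6:58895538-58914793, where Nap1l5 lies in Herc3. The others reached over chr11:22960204-22990356, where Zrsr1 lies in Commd1, chr7:128677861-128697952, where Inpp5f has an internal start, and chr15:72800842-72819709, where Peg13 lies in Trappc9. It found 30 of 333984 windows in the E6.5 table and 33 of 402812 windows in the E7.5 tables. A window that overlapped the 1 kb on either side of an annotated inner start was called a DMR (differentially methylated region) window, and the others were called flank windows. This gave 15 DMR and 15 flank windows at E6.5, and 16 DMR and 17 flank windows at E7.5. By locus, 9 E7.5 windows belonged to H13, 4 to Nap1l5, 8 to Zrsr1, 6 to Inpp5f and 6 to Peg13.

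DNA methylation was measured by post-bisulphite adaptor tagging (PBAT), which reads cytosine methylation from very little DNA, in hand-dissected epiblast and extra-embryonic ectoderm (ExE) of hybrid mouse embryos. All embryos had 1 CAST/Ei parent, and the mother's strain is named first: B6/CAST embryos had C57BL6/Babr mothers and CAST/B6 embryos had CAST/Ei mothers. At E6.5, where 4 epiblasts or 8 ExE were pooled for each library and the table used here gives both alleles together, there were 3 B6/CAST, 3 CAST/B6 and 2 matDKO/CAST epiblast libraries, and 2, 2 and 3 ExE libraries, respectively. The matDKO/CAST embryos came from B6/129 mothers that carried floxed Dnmt3a and Dnmt3b and Zp3-cre, which is active in growing oocytes, and from CAST fathers. Their own cells received intact paternal Dnmt3a and Dnmt3b, and the mothers' 129 background is not shared by the B6/CAST controls. At E7.5 there were 2 libraries of single B6/CAST or CAST/B6 embryos for each tissue, and values by parent, from reads that crossed a strain difference, were used as well.

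Genomic imprinting leaves 1 parental copy of a gene silent. At maternal germline DMRs the mark is set in the growing oocyte by the de novo methyltransferase DNMT3A with its cofactor DNMT3L, kept through the wave of demethylation after fertilization, and read later as a methylated maternal and an unmethylated paternal CpG island. Mcts2, Nap1l5, Zrsr1 and the short Inpp5f transcript are known as retrotransposed or intronic transcripts expressed from the paternal allele, and Peg13 is a paternally expressed non-coding RNA. In oocytes, transcription of the host gene across the inner island is known to precede its methylation.

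A CpG-rich sequence next to each inner start is shown, since the windows that parted the alleles, or at Nap1l5 had intermediate values, lay there. Each line gives 250 bases of the GRCm38 reference, read 5′ to 3′ on the strand of the inner transcript, with every CpG, the site of methylation, in capitals. The stretch with most CpGs was taken from the shortest E7.5 DMR window that held one outside annotated untranslated regions.
Mcts2 upstream of its start in H13: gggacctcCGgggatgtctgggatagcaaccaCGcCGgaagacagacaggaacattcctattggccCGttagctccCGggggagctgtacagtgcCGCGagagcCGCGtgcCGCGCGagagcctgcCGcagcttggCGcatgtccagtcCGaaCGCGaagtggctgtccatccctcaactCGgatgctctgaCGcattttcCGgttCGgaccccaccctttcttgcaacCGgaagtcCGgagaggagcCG
Nap1l5 upstream of its start in Herc3: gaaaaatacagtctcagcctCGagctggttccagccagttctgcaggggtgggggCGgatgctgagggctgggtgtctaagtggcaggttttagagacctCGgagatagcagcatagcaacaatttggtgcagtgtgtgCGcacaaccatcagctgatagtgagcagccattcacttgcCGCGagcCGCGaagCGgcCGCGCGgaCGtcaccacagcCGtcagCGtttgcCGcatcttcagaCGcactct
Zrsr1 coding start in Commd1: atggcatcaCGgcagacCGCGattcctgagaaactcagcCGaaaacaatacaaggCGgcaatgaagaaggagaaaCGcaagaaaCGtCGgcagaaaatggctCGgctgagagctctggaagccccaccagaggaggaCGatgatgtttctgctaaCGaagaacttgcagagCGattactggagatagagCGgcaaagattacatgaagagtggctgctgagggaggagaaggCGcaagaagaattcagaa
Inpp5f between its internal starts: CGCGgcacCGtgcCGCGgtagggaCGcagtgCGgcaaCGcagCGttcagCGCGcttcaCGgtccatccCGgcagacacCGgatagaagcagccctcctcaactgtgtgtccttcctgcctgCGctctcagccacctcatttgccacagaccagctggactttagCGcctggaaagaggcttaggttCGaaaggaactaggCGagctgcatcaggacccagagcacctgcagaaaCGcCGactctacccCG
Peg13 just inside its start in Trappc9: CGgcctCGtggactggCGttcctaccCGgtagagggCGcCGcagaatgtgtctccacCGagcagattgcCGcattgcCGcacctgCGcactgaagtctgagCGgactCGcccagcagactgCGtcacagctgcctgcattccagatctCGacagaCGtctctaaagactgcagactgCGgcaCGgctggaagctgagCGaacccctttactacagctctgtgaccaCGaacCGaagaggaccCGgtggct

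The first stretch, at chr2:152686778-152687027 on the plus strand, ended just before the annotated Mcts2 start and held 24 CpGs. The Nap1l5 stretch lay upstream of that gene at chr6:58907077-58907326 on the minus strand and held 17 CpGs. The Zrsr1 stretch began with the coding sequence at chr11:22973228-22973477 on the plus strand, and at 14 CpGs it was the least CpG-dense of the 5 stretches. This does not describe the called Zrsr1 window, which held 46 CpGs in 638 bp. The Inpp5f stretch at chr7:128687970-128688219 on the plus strand lay between the annotated internal starts at 128687546 and 128688489. The Peg13 stretch at chr15:72809874-72810123 on the minus strand lay within the transcript, downstream of the start at 72810324. Both held 21 CpGs. The Zrsr1 stretch lay in the window next to the called one, and that window had few allelic values. The hexamer TGCCGC, which the imprint-maintaining zinc finger protein ZFP57 is known to bind when methylated, was counted on both strands. It occurred 3 times in the Mcts2, Inpp5f and Peg13 stretches and 2 times in those of Nap1l5 and Zrsr1. Over whole E7.5 windows, 10 of 16 DMR windows and 8 of 17 flank windows held it, against 31.8% of the 370922 windows scanned. The windows were drawn by the authors to a fixed number of CpG positions, so that CpG-dense places have short windows. The Nap1l5 upstream window chr6:58906734-58907488 held 5 copies in 755 bp, as many as were found in 0.226% of windows of similar length (within 1.25-fold). The Zrsr1 window chr11:22972112-22972749 held none.

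Library means over autosomes, which set the level against which these windows are read, ranged from 71.7% to 75.6% in E7.5 epiblast and from 56.1% to 59.2% in E7.5 ExE. At E6.5 they ranged from 63.9% to 78.3% in wild-type epiblast and from 50.5% to 64.5% in wild-type ExE. They were 51.1% and 53.0% in matDKO/CAST epiblast and 37.2% to 39.3% in matDKO/CAST ExE. Replicate 3 of the matDKO/CAST epiblasts had values in 72.2% of windows, against 88.9% or more in each other E6.5 library. The tissue labels were checked at marker promoters. Elf5, a trophoblast transcription factor, was methylated at 67.0% ± 7.5 (SD, n = 4) in E7.5 epiblast and 35.3% ± 10.6 (SD, n = 4) in ExE, while Pou5f1, a pluripotency factor, stood at 9.46% ± 2.30 and 26.9% ± 1.2 (SD, n = 4 each).

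The first comparison asked whether the maternal and paternal copies differed at E7.5, and where. In both tissues the maternal allele was highly methylated at the starts that could be read. The paternal allele was nearly unmethylated at Zrsr1, at the Peg13 start and in most libraries at Mcts2, and it carried low to intermediate levels at Inpp5f. The alleles of most flanks differed little. limma (moderated tests across all windows, Benjamini-Hochberg adjustment) called maternal methylation higher in 4 of 9 tested DMR windows in epiblast, where 0.00629% of the 238529 windows tested were called in that direction. In ExE it called 2 of 12 DMR windows, against 0.00503% of 318358 windows. No flank window was called of 14 tested in epiblast and 17 in ExE, and at an unadjusted p under 0.05 there were 0 and 2 flank windows. The median maternal minus paternal difference of the DMR windows was 43.3 percentage points in epiblast and 34.1 in ExE, that of the flank windows was 2.35 and 1.66, and that of all windows was −0.06 and −0.08. The estimate was positive in all 9 and all 12 DMR windows tested. A window entered the test only when both alleles had a value in all 4 libraries, so 7 and 4 of the 16 DMR windows were left out, and 2 and 1 of these had no library with both alleles measured.

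**Figure D1:**
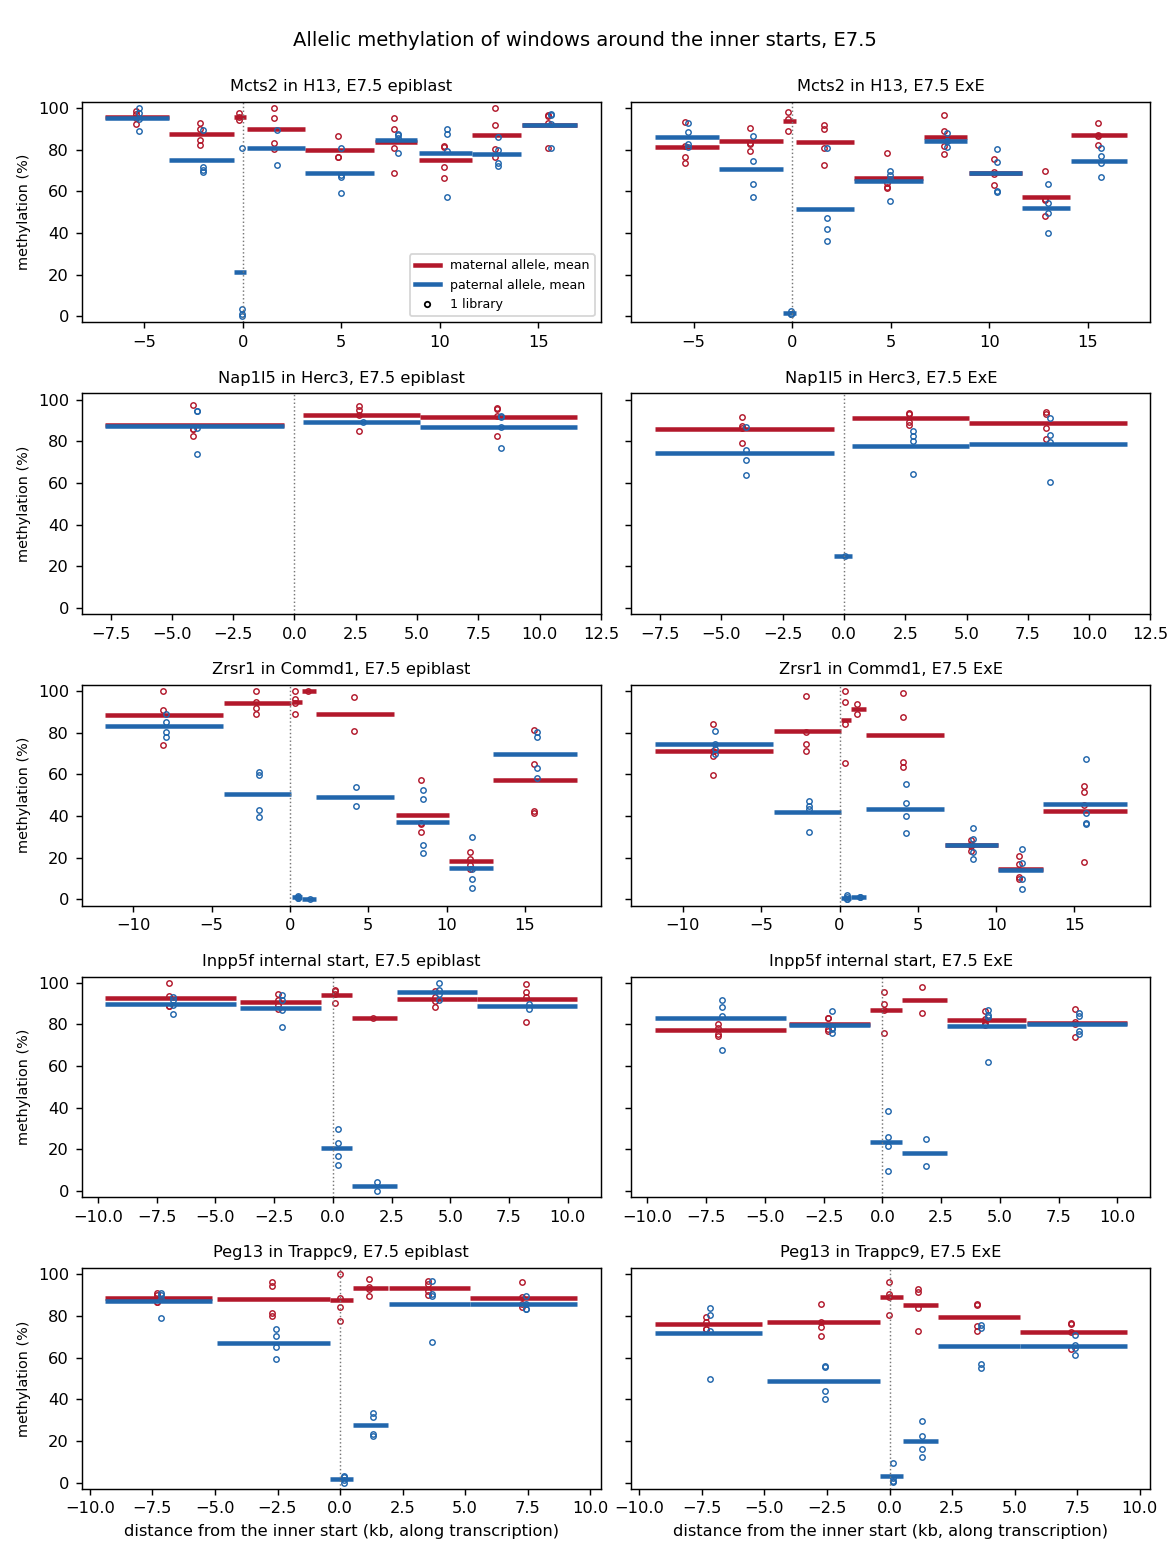
Methylation (percent) of the maternal (red) and paternal (blue) allele in E7.5 windows, by distance in kb from the inner start along its transcription. Bars span each window at the mean of its libraries and circles are single libraries: the alleles part in the short windows at the starts of Zrsr1, Inpp5f, Peg13 and Mcts2, and Nap1l5 has 1 paternal value at its start.

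Zrsr1, a retrogene copy related to a U2-associated splicing factor, showed the largest fitted difference in epiblast, while in ExE that of the Peg13 start was slightly larger. The window chr11:22972112-22972749, which overlaps exons of Commd1 and Zrsr1, had maternal values of 94.3% and 89.1% in the B6/CAST and 96.2% and 100% in the CAST/B6 epiblasts. Its paternal values were 0.91%, 1.57%, 0.54% and 1.30% in the same order. Maternal and paternal values did not overlap, and the fitted difference was 93.8 points (SE 4.1, adjusted p = 0.014). In ExE the maternal values were 84.2%, 65.7%, 100% and 94.9% and the paternal values 0.13%, 1.35%, 0% and 1.96%. The lowest maternal value, in B6/CAST replicate 2, still exceeded every paternal one, and the difference was 85.3 points (SE 4.9, adjusted p = 0.032).

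The allelic difference at Zrsr1 went on beyond the start but was smaller there. In the 4.3 kb before it (chr11:22967796-22972094) the maternal allele averaged 94.1% ± 4.6 and the paternal allele 50.8% ± 11.1 in epiblast, and 81.0% ± 11.8 and 42.1% ± 6.6 in ExE (SD, n = 4 each). The maternal value was higher in all 4 libraries of each tissue, by 29.7 to 56.8 points in epiblast and 29.4 to 50.5 in ExE, without passing the adjusted threshold (adjusted p = 0.94 and 0.78). On the other side, chr11:22973671-22978645 differed by 35.8 points (SE 5.8, adjusted p = 0.78) in ExE. In the short window that holds the coding start, chr11:22972750-22973670, few libraries had allelic values: the maternal ones ran from 88.9% to 100% and the paternal ones from 0% to 1.39%. Farther into Commd1, which encodes a copper metabolism protein, the alleles met, as chr11:22960204-22967749 averaged 71.1% maternal and 74.4% paternal in ExE.

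Peg13 had 2 windows with a called difference in epiblast and 1 in ExE. At its start, chr15:72809805-72810713, the maternal values were 88.5%, 77.5%, 84.4% and 100% in epiblast and the paternal values 1.16%, 3.26%, 2.5% and 0%. The difference was 85.9 points (SE 5.1, adjusted p = 0.032), with no overlap between the alleles. In ExE the maternal values were 89.2%, 90.6%, 80.4% and 96.2% and the paternal values 0.33%, 2.24%, 9.21% and 0.54%. That difference was 86.0 points (SE 5.2, adjusted p = 0.038), and CAST/B6 replicate 1 held both the lowest maternal and the highest paternal value. The neighbouring window in the body of the RNA, chr15:72808398-72809804, averaged 93.6% ± 3.5 maternal and 27.6% ± 5.7 paternal in epiblast (SD, n = 4 each; difference 66.0 points, adjusted p = 0.039). In ExE it averaged 85.2% ± 9.1 and 20.0% ± 7.5 (SD, n = 4 each), which did not pass the adjusted threshold (difference 65.2 points, adjusted p = 0.22). The paternal allele there carried more methylation than at the start, in every library of both tissues.

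At the internal start of Inpp5f, a gene for a phosphoinositide phosphatase, the window chr7:128687040-128688376 had maternal values of 90.1%, 96.5%, 94.4% and 96.1% in epiblast. Its paternal values were 16.98%, 22.9%, 29.9% and 12.4%, well above those at Zrsr1 and the Peg13 start but below every maternal value. The difference of 73.7 points (SE 4.8) was called (adjusted p = 0.039). In ExE the maternal values were 95.4%, 75.9%, 87.0% and 89.8% and the paternal values 9.54%, 25.7%, 38.2% and 21.4%, a difference of 63.3 points (SE 7.0) that was not called (adjusted p = 0.67). The next window downstream, chr7:128688377-128690289, had paternal values of 0% and 4.55% in epiblast and 11.8% and 25% in ExE, each from 2 libraries. Upstream of the start, chr7:128683585-128687039 differed by only 2.83 points in epiblast and 0.54 in ExE.

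Mcts2, a retrogene copy of Mcts1, lies in H13, the gene of the signal peptide peptidase. The start window chr2:152686583-152687225 had no maternal value in CAST/B6 replicate 1 and so entered no parental test. In ExE its maternal values were 94.8%, 88.8% and 98.3% and its paternal values 1.26%, 2.31%, 0.90% and 1.15%. In epiblast the maternal values were 94.4%, 95.5% and 97.8%, and the paternal values 0%, 81.0%, 1.12% and 3.60%. The 81.0% belonged to B6/CAST replicate 2, whose value for the alleles together was 90.1%, against 45.1%, 11.6% and 40.9% in the other epiblast libraries. The same embryo library was not unusual at the paternal alleles of Zrsr1 or the Peg13 start, given above. Without it, the maternal minus paternal difference at Mcts2 was 94.4 and 94.2 points in the 2 other epiblast libraries with both alleles. On either side of the start the alleles differed less: by 13.4 points (SE 5.9, adjusted p = 0.78) in chr2:152683307-152686582 and 32.4 points (SE 5.9, adjusted p = 0.78) in chr2:152687229-152690178 in ExE.

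Nap1l5, a nucleosome assembly protein-like retrogene, could hardly be read by allele. Its upstream window chr6:58906734-58907488 had 1 allelic value in all, a paternal 25% in B6/CAST ExE replicate 2. With the alleles together it stood at 57.8%, 29.9%, 53.7% and 37.4% in epiblast and at 57.04%, 45.3%, 78.1% and 62.1% in ExE. In epiblast these values lay below the 74.7% to 96.6% of the 2 adjoining windows. In ExE the adjoining windows ran from 71.4% to 84.0%, and CAST/B6 replicate 1, at 78.1%, lay within that range. In ExE the adjoining windows differed between alleles by 13.1 points (SE 4.5) and 11.7 points (SE 5.6), both with adjusted p = 0.78, and the maternal value was the higher one in every library. In epiblast chr6:58907489-58914793 differed by 8.83 and −0.82 points in B6/CAST and by −9.02 and 3.12 points in CAST/B6, with no common direction (estimate 0.52), and chr6:58901966-58906733 had both alleles in 1 library only.

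In most flanks the levels of the 2 alleles lay close to each other. The flank differences that reached an unadjusted p under 0.05 were both in ExE and not called: 14.3 points in chr15:72805124-72808375 beside Peg13, where the maternal value was higher in 3 of 4 libraries, and 12.6 points in chr2:152701189-152704007 in H13, where it was higher in 4 of 4 (adjusted p = 0.78 each). The lowest estimate was −12.5 points, in epiblast at chr11:22984991-22990356, which lies upstream of Commd1 and overlaps no annotated gene (adjusted p = 0.94). In the flanks of Peg13, Inpp5f and Nap1l5 the mean levels ran from 85.6% to 95.7% in epiblast and from 65.4% to 88.6% in ExE over the 2 alleles. The H13 flanks ran from 68.7% to 95.95% in epiblast and 51.9% to 87.1% in ExE. Only the Zrsr1 interval reached the start of its host, Commd1, and the flanks towards that start were low on both alleles. The starts of the other hosts lay outside their intervals and are described below. The Commd1 window chr11:22978762-22982136 averaged 40.6% ± 11.2 maternal and 37.2% ± 15.2 paternal in epiblast, and 25.9% ± 2.3 and 26.4% ± 6.7 in ExE (SD, n = 4 each). The window with the Commd1 start, chr11:22982137-22984990, averaged 18.2% ± 3.6 and 15.1% ± 10.6 in epiblast, and 14.6% ± 5.3 and 14.2% ± 8.4 in ExE (SD, n = 4 each). The Zrsr1 start lay between a highly and a lowly methylated part of its host.

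**Figure D2:**
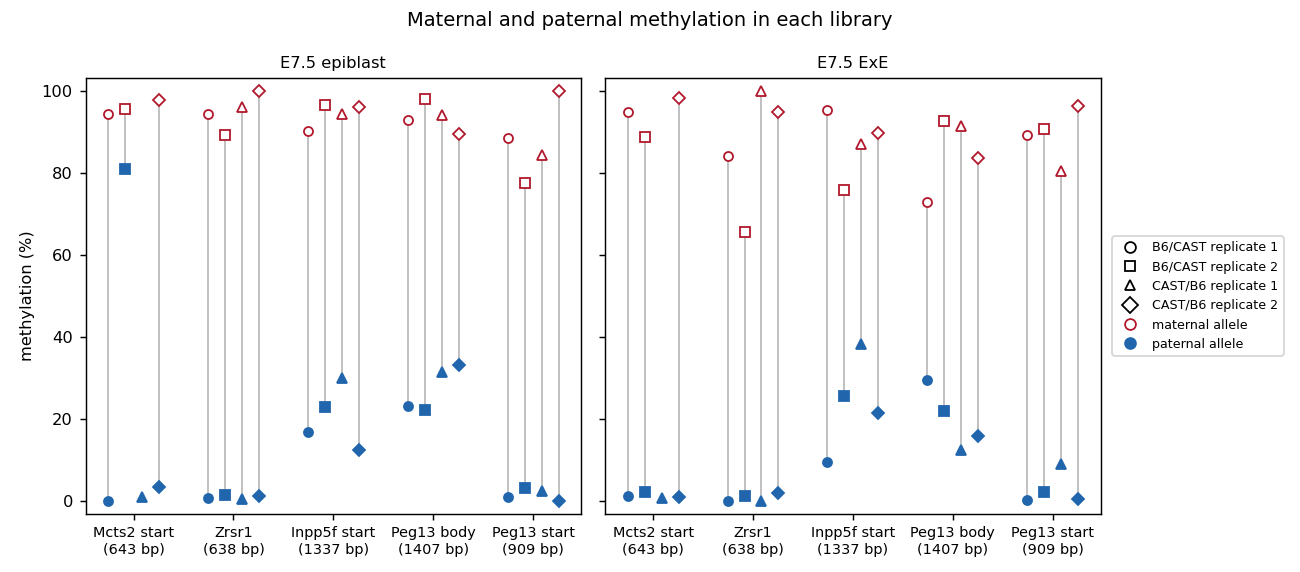
Methylation (percent) of the maternal (open red) and paternal (filled blue) allele in each E7.5 library at 5 inner windows. Lines join the 2 alleles of a library, shapes mark cross and replicate, and the 1 paternal value near its maternal partner is 81.0% at the Mcts2 start in B6/CAST epiblast replicate 2.

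After these values had been seen, a count that does not depend on the variance was added. The maternal allele was at least 50 points above the paternal allele in all 4 libraries in 4 of 9 DMR windows in epiblast, against 0.00713% of all windows with values, and in 2 of 12 in ExE, against 0.0066%. No flank window met it. The 4 epiblast windows were in Zrsr1, Inpp5f and Peg13. Each called difference was lost when any 1 of the 4 libraries was left out (0 DMR windows called in each case), while the estimates stayed between 64.4 and 95.3 points in epiblast and between 79.9 and 92.1 in ExE.

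Both crosses were compared to tell parent from strain. For the B6 against the CAST allele, limma called 0 of 12 DMR windows in ExE and 0 of 9 in epiblast, where the calls over all windows were also 0 (0% each). At an unadjusted p under 0.05 there were 1 and 0 DMR windows and 3 and 0 flank windows, against 8.73% and 6.65% of all windows. The size of the parental difference was also tested between ExE and epiblast, and 0 of 9 DMR windows were called, with 0% of 237650 windows called. None of the 9 had an unadjusted p under 0.05, against 5.29% of all windows, and their differences between tissues ranged from −10.4 to 11.2 points.

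For scale, windows at annotated starts of other maternally methylated genes were read in ExE. limma called 1 window each at Plagl1 (85.3 points), Grb10 (80.4), Snrpn (80.0) and Peg3 (77.9), genes whose germline DMRs are well known. At Plagl1 and Grb10 these were windows beside a shorter one that lacked allelic values in some libraries. The others of the list were not called. The shortest window at Mest differed by 87.0 points ± 6.2 (SD, n = 3), that of Kcnq1ot1 by only 37.4 ± 8.1 (SD, n = 4) and that of Airn by 24.3 ± 13.1 (SD, n = 2), and Peg10 had no library with both alleles. The windows of Kcnq1ot1 (4672 bp) and Airn (4304 bp) lay mostly upstream of the annotated starts. Their values are therefore not read as the size of the difference at those DMRs. With Kcnq1ot1 and Airn left aside, the 85.3 and 86.0 points of Zrsr1 and Peg13 fall within the 77.9 to 87.0 points given for the other maternally methylated genes. The promoter of H19, whose paternal copy carries the mark, had the opposite sign, with a maternal minus paternal difference of −61.1 points ± 20.0 (SD, n = 4) in ExE and −50.5 ± 15.6 (SD, n = 3) in epiblast.

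The promoters of the host genes and of near neighbours were then compared. Those of 4 hosts were lowly methylated with the alleles together at E7.5: Herc3, an E3 ubiquitin ligase gene, stood at 0.70% ± 0.10 in epiblast and 0.69% ± 0.57 in ExE (SD, n = 4). Inpp5f stood at 3.91% ± 2.06 and 4.95% ± 1.42, H13 at 7.32% ± 2.57 and 4.02% ± 0.79, and Commd1 at 19.1% ± 2.3 and 16.0% ± 2.1 (SD, n = 4). The window at the start of Trappc9, a gene of vesicle trafficking, was the exception at 49.5% ± 3.0 in epiblast and 29.6% ± 2.5 in ExE. It spanned 3989 bp, mostly upstream of that start. limma called it lower in ExE (adjusted p = 0.00017), as it did 82.9% of all windows. Of the host promoters that could be tested, limma called none between the parental alleles, and the fitted differences were between −3.07 and 3.13 points. At Commd1 and Inpp5f the B6 allele was higher than the CAST allele in all 4 ExE libraries, by 11.1 points (SE 4.1, adjusted p = 0.55) and 8.10 points (SE 4.1, adjusted p = 0.63), which limma did not call. In the parental difference such values cancel between the crosses. H13 had too few allelic values for the parental test, and Trappc9 was tested in ExE alone (−1.95 points). In epiblast Trappc9 had maternal values of 46.7% and 50% and paternal values from 45.0% to 92.9% in 3 libraries, and the 1 library with both alleles differed by −42.9 points. Kcnk9, a potassium channel gene beyond Trappc9 that is known to be expressed from the maternal allele in brain, stood at 6.24% ± 2.11 in epiblast and 14.2% ± 3.0 in ExE (SD, n = 4) and was higher in ExE (7.95 points, SE 2.39, adjusted p = 0.013). Its alleles differed by 2.42 points in epiblast and −6.78 points in ExE (adjusted p = 0.97 and 0.80). Chrac1, which encodes a chromatin accessibility subunit, stood at 29.8% ± 6.1 and 27.5% ± 1.8 (SD, n = 4) and was not called in any of these tests. That window, chr15:73088273-73090402, lay almost wholly upstream of the start at 73090392. The E6.5 window across the start, chr15:73089870-73090593, ran from 0% to 4.09% in wild-type epiblast and from 0% to 0.68% in wild-type ExE.

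The second comparison was between the tissues. ExE methylation was lower than epiblast methylation over most of the genome, and the median DMR window was lower by a smaller amount than the median window. At E7.5 limma called 6 of 16 DMR windows and 12 of 17 flank windows lower in ExE, where 82.9% of 383556 windows were called lower. The median difference was −7.41 points in the DMR windows, −10.6 in the flanks and −16.5 over all windows. At E6.5, 2 of 13 DMR windows and 5 of 14 flank windows were called lower, against 59.6% of 250886 windows, with medians of −6.96, −10.8 and −16.6. No DMR window was called higher in ExE on either day in this fit. After each library's mean was subtracted, however, the direction turned: 15 of 16 DMR windows at E7.5 had a higher relative level in ExE (median 8.91 points, 5 called), as had 11 of 13 at E6.5 (median 9.60 points, 1 called). The subtraction moves all windows of a library by the same amount. The flank medians given above were also nearer 0 than those of all windows, so this turn is not particular to the DMR windows. The shares of all windows called in these fits are not reported here.

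At the starts themselves no window was called, and the estimates went both ways. The upstream window of Nap1l5, chr6:58906734-58907488, stood at 44.7% ± 13.2 in epiblast and 60.7% ± 13.6 in ExE (SD, n = 4 each), with overlapping libraries (16.0 points higher, adjusted p = 0.068). It was called higher in ExE when a replicate block was fitted. The Mcts2 start stood at 46.9% ± 32.4 and 31.2% ± 13.4 (SD, n = 4 each; −15.7 points, adjusted p = 0.18), and its epiblast values include the 90.1% of B6/CAST replicate 2. At Peg13, chr15:72809805-72810713 had 45.0%, 36.8%, 43.1% and 42.6% in epiblast and 41.6%, 45.3%, 51.7% and 55.8% in ExE, so that the tissues overlapped (difference 6.71 points, SE 2.89, adjusted p = 0.055). The windows on both sides of it fell in ExE, by 14.6 points in chr15:72808398-72809804 and by 17.7 points in chr15:72810714-72815223 (adjusted p = 0.0055 and 0.00057). These sizes are near the median of all windows, and with library means subtracted they were 1.71 and −1.41 points, neither of them called. The Inpp5f start window stood at 54.4% ± 8.7 in epiblast and 56.0% ± 4.7 in ExE (SD, n = 4 each; adjusted p = 0.73). The Zrsr1 window chr11:22972112-22972749 stood at 34.6% ± 16.8 and 30.2% ± 3.0 (SD, n = 4 each; adjusted p = 0.58), and its 4 epiblast values, from 11.7% to 51.9%, enclosed all 4 ExE values. The other windows called lower in ExE were chr2:152687229-152690178 in H13 (−9.58 points, adjusted p = 0.0098), chr7:128683585-128687039 at Inpp5f (−9.50, adjusted p = 0.0037), chr6:58907489-58914793 at Nap1l5 (−8.91, adjusted p = 0.047) and chr11:22973671-22978645 at Zrsr1 (−7.93, adjusted p = 0.031). The last 2 calls were weak: they held in 4 and 5 of 11 alternatives, with adjusted p up to 0.14 and 0.091. The Nap1l5 call was lost without any 1 of 5 libraries (B6/CAST ExE replicate 2, either CAST/B6 ExE or either CAST/B6 epiblast replicate). The Zrsr1 call was also lost without any 1 of 5 (B6/CAST ExE replicate 2, either B6/CAST epiblast replicate, or CAST/B6 replicate 1 of either tissue). The largest tissue difference among the 33 windows was in a flank, chr2:152698683-152701145 in H13, at −25.7 points (SE 2.6, adjusted p = 9.9e-05). Its epiblast values ran from 76.5% to 85.5% and its ExE values from 54.3% to 59.1%.

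**Figure D3:**
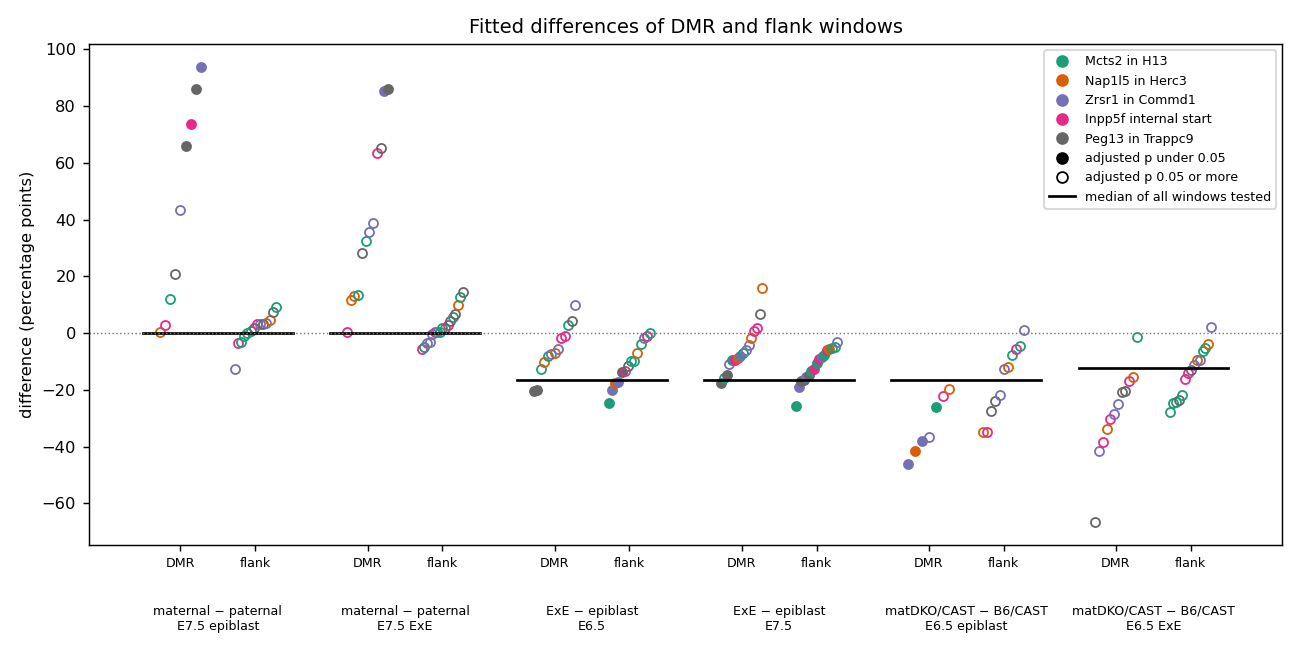
Fitted differences (percentage points) of each tested DMR and flank window in 6 comparisons, coloured by locus. Filled points have an adjusted p under 0.05 and black lines mark the median of all windows tested: the parental differences of DMR windows reach 93.8 points, while those of the flanks lie between −12.5 and 14.3 points.

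The third comparison set matDKO/CAST against B6/CAST embryos at E6.5, with the alleles together. Every DMR window tested had a lower mean in matDKO/CAST than in B6/CAST in both tissues, and both short Zrsr1 windows lay between 0% and 12.5% there. The windows at the Peg13 start could not be tested in epiblast, and the 1 matDKO/CAST value there was not low. In epiblast limma called 4 of 7 tested DMR windows lower, where 23.4% of 192419 windows were called lower, and 0 of 11 flank windows. These were chr11:22972877-22974027 (−46.2 points, SE 10.4) and chr11:22966864-22972185 (−38.2, SE 7.7) at Zrsr1, chr6:58906892-58910578 at Nap1l5 (−41.6, SE 8.4) and chr2:152687857-152692271 in H13 (−25.9, SE 6.4), with adjusted p from 0.018 to 0.027. The median of the DMR windows was −36.5 points, of the flanks −12.6 and of all windows −16.4. In ExE none of 12 DMR windows was called, and 0% of 254322 windows were. At an unadjusted p under 0.05 there were 10 of 12 DMR windows, all of them lower, against 25.8% of all windows in either direction. All 12 estimates were negative, and the ExE medians were −26.8 points in the DMR windows, −13.1 in the flanks and −12.4 over all windows.

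The library means moved the same way in matDKO/CAST, as given above. With each library's mean subtracted, the median DMR difference was −19.5 points in epiblast and −14.9 in ExE, and no window of the genome was called in either tissue. The 4 epiblast calls were lost without the unnumbered B6/CAST library (0 called). With 1 matDKO/CAST library left, which is then assumed to vary like the other groups, the count was 0 without replicate 3 (of 13 windows then tested) and 4 without replicate 1. With both crosses as controls, limma called 6 of 7 DMR windows in epiblast and 10 of 12 in ExE, where 53.1% and 49.0% of all windows were called. Every matDKO/CAST library lay below every B6/CAST library in 6 of 7 DMR windows in epiblast and 11 of 12 in ExE, where 49.7% and 48.7% of all windows did so. In the flanks this held for 6 of 11 and 8 of 15 windows.

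Zrsr1 was the locus with the lowest matDKO/CAST values. In chr11:22972877-22974027, which holds 2 annotated starts, the B6/CAST epiblasts had 68.1%, 39.4% and 49.9% and the matDKO/CAST epiblasts 12.5% and 0%. In ExE the values were 34.3% and 52.3% in B6/CAST and 0%, 0% and 5.56% in matDKO/CAST. The adjoining chr11:22972202-22972876 was at 0% in all 5 matDKO/CAST libraries, while the wild-type libraries with a value ran from 12.9% to 90.2%. Groups did not overlap in either window.

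At Nap1l5, chr6:58906892-58910578 had 67.0%, 63.0% and 72.9% in B6/CAST epiblast and 29.4% and 22.7% in matDKO/CAST epiblast. In ExE it had 80.8% and 54.7%, against 30%, 39.6% and 32.8%, again without overlap (−33.6 points, SE 10.4, adjusted p = 0.14). The other Nap1l5 window with an annotated start, chr6:58903257-58906884, showed less. Its B6/CAST epiblasts had 79.7%, 42.9% and 59.8% and its matDKO/CAST epiblasts 48.6% and 33.3%, so that the groups overlapped (−19.8 points, SE 11.6, adjusted p = 0.22). In ExE it had 44.6% and 57.6% against 44.4%, 27.9% and 34.5% (−15.5 points, SE 12.8, adjusted p = 0.43). The 4.4 kb after the Mcts2 start in H13, chr2:152687857-152692271, was at 87.4%, 70.6% and 71.4% in B6/CAST epiblast and at 49.0% and 52.2% in matDKO/CAST epiblast. In ExE it barely differed, at 71.3% and 65.8% against 67.2%, 61.6% and 72.5% (−1.43 points, SE 6.70, adjusted p = 0.90). The shorter Mcts2 window chr2:152686927-152687856 lacked values in 2 matDKO/CAST libraries and was not tested. It had 47.8%, 100% and 50.8% in B6/CAST and 26.3% in the first matDKO/CAST epiblast library, and 54.6% and 48.7% against 26.3% and 2.78% in ExE.

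The short windows at the starts of Inpp5f and Peg13 could be tested in ExE alone, because matDKO/CAST epiblast replicate 3 had no value there. At the Inpp5f start, chr7:128688156-128689477, ExE had 45.1% and 69.6% in B6/CAST and 11.9%, 18.2% and 26.7% in matDKO/CAST (−38.4 points, SE 9.8, adjusted p = 0.13). In epiblast the B6/CAST values of 76.2%, 48.4% and 50% stood beside 37.1% in 1 matDKO/CAST library. The window before it, chr7:128685379-128688135, holds another internal start and lacked a value in B6/CAST epiblast replicate 3. There the B6/CAST epiblasts had 87.4% and 77.6% and the matDKO/CAST epiblasts 66.7% and 12.1%, and ExE had 35.7% and 69.7% against 25.6%, 26.6% and 15.2% (−30.3 points, SE 10.7, adjusted p = 0.15). In Peg13, chr15:72809439-72810310 showed the largest ExE difference of the 12 DMR windows, with 79.9% and 69.6% in B6/CAST and 24.6%, 0% and 0% in matDKO/CAST (−66.5 points, SE 12.7, adjusted p = 0.13). The epiblast values were not arranged in this way. There matDKO/CAST replicate 1 had 80.0%, within the B6/CAST values of 64.3%, 43.3% and 97.7%, and its values in the adjoining windows chr15:72806706-72809438 and chr15:72810321-72814067 were 77.6% and 87.5%. This rests on 1 library, and the difference between the tissues was not tested.

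**Figure D4:**
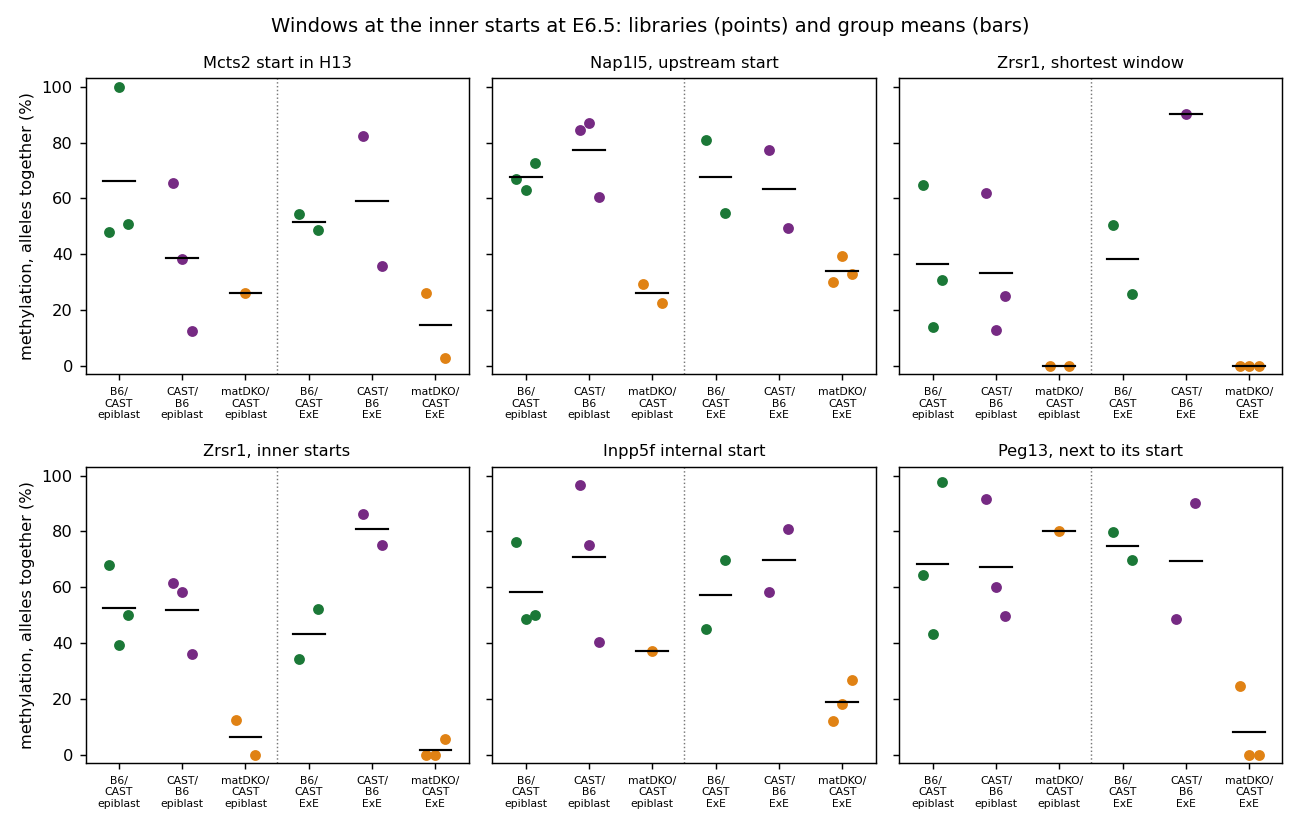
Methylation (percent, alleles together) of 6 E6.5 windows at the inner starts, by cross and tissue. Points are libraries and bars are group means: matDKO/CAST libraries lie below the B6/CAST libraries of their tissue, down to 0% at Zrsr1, except for Peg13 in epiblast, where the 1 matDKO/CAST value is 80.0%.

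The E6.5 table used here gives 1 value for both parental copies, so its values are read with the alleles together. Between the reciprocal crosses limma called no DMR window, which does not show that the crosses were alike with 2 or 3 libraries each. It called 0 of 13 at E6.5 in epiblast (0% of all windows) and in ExE (2.12% of all windows), and 0 of 16 at E7.5 in epiblast (0%) and in ExE (0%). In each of these 4 comparisons, 2 DMR windows had an unadjusted p under 0.05. Over all windows that share was 19.2% and 27.7% at E6.5, and 5.80% and 5.77% at E7.5. The largest was the Mcts2 start in E7.5 epiblast, where B6/CAST exceeded CAST/B6 by 41.3 points (SE 14.6, adjusted p = 0.85) and which holds the 90.1% of B6/CAST replicate 2. Next was chr11:22972877-22974027 at Zrsr1 in E6.5 ExE, at 34.3% and 52.3% in B6/CAST and 86.3% and 75.2% in CAST/B6 (−37.4 points, SE 11.1, adjusted p = 0.077), where the crosses did not overlap.

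Peg13 held both DMR windows that limma called lower in ExE at E6.5. In chr15:72806706-72809438 the wild-type epiblasts ran from 67.9% to 90.0% and the wild-type ExE from 56.3% to 69.8% (−19.9 points, SE 4.8, adjusted p = 0.0053), so that 1 ExE library reached into the epiblast range. In chr15:72810321-72814067 the epiblasts ran from 67.7% to 84.2% and the ExE from 50.8% to 65.6% (−20.5 points, SE 4.5, adjusted p = 0.0034), without overlap. Between them, the short window chr15:72809439-72810310 ran from 43.3% to 97.7% and from 48.5% to 90.1%, so that the tissues overlapped over most of their range.

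Values from the 2 days are set side by side without a test, because the windows were drawn separately for each table. Day also went with pooling, library preparation and depth, so that these cannot be told apart. At the Mcts2 start, the E6.5 window averaged 52.5% ± 29.2 (SD, n = 6) in wild-type epiblast and the E7.5 window 46.9% ± 32.4 (SD, n = 4). In ExE they averaged 55.3% ± 19.6 and 31.2% ± 13.4 (SD, n = 4 each). The short Zrsr1 window averaged 34.9% ± 23.1 (SD, n = 6) at E6.5 and 34.6% ± 16.8 (SD, n = 4) at E7.5 in epiblast. In ExE it averaged 55.6% ± 32.5 (SD, n = 3) at E6.5, with values of 50.7%, 25.8% and 90.2%, and 30.2% ± 3.0 (SD, n = 4) at E7.5. The spread between libraries was wide at both ages in epiblast, with 12.9% to 64.7% at E6.5 and 11.7% to 51.9% at E7.5 for this Zrsr1 window. At the Inpp5f start the epiblast means were 64.4% ± 21.6 (SD, n = 6) and 54.4% ± 8.7 (SD, n = 4), and the ExE means 63.5% ± 15.4 and 56.0% ± 4.7 (SD, n = 4 each).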

How the data were processed

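Processed tables were used as deposited. Per the labels and the study's methods, the authors prepared PBAT libraries (E6.5 from the input of MNase-digested chromatin, E7.5 from whole single tissues whose bisulphite conversion was repeated), trimmed the reads (Trim Galore 0.4.4 in the submitters' processing notes), aligned them with Bismark (0.20.0 in those notes, while the study's methods give an earlier version) to a GRCm38 genome with strain SNPs masked, and sorted reads by parent with SNPsplit; parental values were used here for E7.5 only. The deposited values are percent methylation, from 0 to 100, in windows of 100 CpG positions. In the reference the E7.5 DMR windows held 45 to 53 CpGs counted on 1 strand. Coverage per window is not given in the sources used here, so depth is unknown and no interval was computed; few reads at a window would widen the spread between libraries. Masking and read sorting leave windows with few strain differences without allelic values. The placement of windows, any minimum of reads, and the second import named in some headings are not given in the sources used here. The authors left out 1 matDKO/CAST epiblast replicate. The E6.5 B6/CAST epiblast column without a number matching a label was used by its group and is called the unnumbered library.

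Groups came from the labels. Replicates are pools (E6.5) or single embryos (E7.5), and p-values measure the spread between these samples. limma 3.58.1 in R 4.3.3 (lmFit, eBayes) was fitted to percent methylation of all autosomal windows with values in every library of the fit (320494 autosomal windows at E6.5, 384346 at E7.5), and p-values were adjusted by Benjamini and Hochberg over all of them at 0.05. The parental fit used the maternal minus paternal difference within a library, with the cross coded by opposite signs so that parent and strain are separate terms. Tissue fits had the cross as covariate, and the matDKO/CAST and cross fits compared group means. Steps were tested on simulated data, with 100 windows changed by 30 points and 100 by 60 points. The parental fits recovered 71% (epiblast) and 70% (ExE) of the 30-point changes and 100% of the 60-point ones. They also made 22 and 28 false calls among unchanged windows. The matDKO/CAST fits recovered 4% (epiblast) and 0% (ExE) of the 30-point changes, and 69% and 73% of the 60-point ones. Other scales, libraries left out, library means subtracted and a replicate block were tried as alternatives.

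The genes described are H13, Nap1l5, Commd1, Zrsr1, Inpp5f, Trappc9 and Peg13, with Mcts2 and Herc3 as their partners; every window of the 5 intervals was analysed, and promoters of hosts, neighbours, other germline DMRs and markers were read as windows that hold an annotated start (GENCODE annotation of GRCm38); group means are of the shortest such window of a gene, and tests cover every such window with complete values. Members, lists and windows were chosen with earlier results of these data known, and the counts by a difference of 50 points and by non-overlap were added after the values were seen.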

Additional observations from a re-analysis of the deposited data

Results flagged for a closer look

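Of 78 sets of 4 libraries (2 of each cross) in the E7.5 windows, 3 held a library far from the others by Dixon's criterion; chance alone would mark about 1 in 20 sets. The paternal allele of the Mcts2 start window, chr2:152686583-152687225, was at 81.0% in B6/CAST epiblast replicate 2, with the others between 0% and 3.59% (ratio 0.956). In the window before it, chr2:152683307-152686582, the same library had a paternal value of 89.4%, with the others between 69.4% and 71.8% (ratio 0.882). At Zrsr1, chr11:22973671-22978645 with the alleles together was at 52.0% in B6/CAST ExE replicate 2, with the others between 60.9% and 62.0% (ratio 0.888).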

How the results depend on the processing

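The parental calls were the least stable: the count of DMR windows with higher maternal methylation was 2 of 12 in ExE and 4 of 9 in epiblast, and it was 1 and 1 on a logit scale, 0 and 0 with a trended and robust prior, 0 and 0 when 1 missing value was allowed, and 0 in both tissues for each library left out (range 0 to 0). Without the replicate block that pairs the alleles of a library, 4 windows were called in ExE and 4 in epiblast. The tissue count at E6.5 was 2, both lower in ExE; with a replicate block it was 1, also lower, and after subtracting library means both were lost and 1 other window, at Zrsr1, was called higher. For matDKO/CAST in epiblast the count was 0 on a logit scale, 0 after subtracting library means, 0 with a replicate block and 0 to 4 when 1 library was left out, against 4. In ExE it was 10 with both crosses as controls, against 0. The replicate block gave 7 tissue calls at E7.5, 6 lower and 1 higher (the Nap1l5 start window), against 6 lower. Same-numbered libraries deviated together little (correlations of −0.028 to 0.051, and 0.049 to 0.051 for the 2 tissues of a cross at E7.5). The numbers were taken as names only. Such correlations cannot show whether same-numbered E7.5 tissues came from the same embryo. With library means subtracted, the DMR windows lower in ExE at E7.5 went from 12 to 1 of 16; those that changed sign and were called in either fit were Zrsr1 at 22973671 (8.39 points), Peg13 at 72808398 (1.71), H13 at 152687229 (6.73), Nap1l5 at 58901966 (14.6) and 58907489 (7.41), and Inpp5f at 128683585 (6.82). The mean over the Peg13 DMR windows was 8.54 points lower in ExE at E7.5 (difference −8.54), and 6.71 points higher at the start window alone. Beyond the alternative's own construction, the cause was not tested. With no read counts, the precision of any single library's value is unknown.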
